A study of Rattus norvegicus with 23 samples.

Results

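The transcripts of the mitochondrial genome were followed in small RNA from rat sperm. They were taken by name, as every row of the deposited Ensembl transcript table whose gene name begins with AY172581. or Mt-, and 22 of the 617 rows met this rule. Of the 22, 15 are AY172581 entries with no further description in the sources used here, called noncoding below because each of the mRNAs in the table carries an Mt- name, and 7 are mRNAs of respiratory chain subunits. Sperm came from the cauda epididymidis, the storage segment of the duct, of male Long-Evans rats with no genetic alteration named in the labels. Filtered air was breathed by 7 rats, ozone at 0.4 ppm by 8 rats and ozone at 0.8 ppm by 8 rats, 1 library each. Each exposure took 4 h, the first week had 3 of them and the second week 2, and the measured means of the ozone chambers were 0.401 ± 0.001 and 0.798 ± 0.001 ppm. The design text speaks of 8 rats in each group, and 7 air libraries carry labels here. The question of the study was whether noncoding RNA of sperm differs after episodes of ozone, an oxidant pollutant. RNA shorter than 200 nt was isolated, with integrity numbers of 2 to 4 over all samples.

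The mitochondrial genome is a small circle read from both strands as long precursors, which are cut mostly at the tRNAs that lie between the other genes. It encodes 2 ribosomal RNAs, a set of tRNAs and 13 mRNAs, and the proteins of those mRNAs sit in complexes I, III, IV and V of the respiratory chain and ATP synthase. In sperm the mitochondria are wound around the midpiece of the tail, and fragments of mitochondrial rRNA and tRNA are a known component of sperm small RNA in mice and humans. A read in such a library is a short fragment, so a row counts pieces of a transcript and not intact molecules.

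The deposited values are reads scaled within the table, and 1 read was worth 0.558 to 1.51 of a normalised value, depending on the library. The low values of the mitochondrial rows gave that step, and 60 of 60 larger mitochondrial values of 200 to 5000 reads then came out as whole reads within 0.1 of a read. Of the values of the other rows under 100 reads, 51.6 to 56.5% per library were whole within 0.05 of a read. The mitochondrial values were therefore turned into whole reads. Values over 5000 reads are given with too few digits for the check. All values of AY172581.24, at 13982 reads or more, are among these. The Ensembl table held 83119 to 228014 reads per library with a median of 168879, and the mitochondrial rows 18417 to 146069 with a median of 78316. The deposited miRNA table held 213840 to 1286612 reads per library with a median of 628271. Replicate 5 at 0.8 ppm had 213840 miRNA reads and replicate 6 at 0.4 ppm had 251123, the 2 lowest of the 23, and the next lowest had 288857. The difference of group means in miRNA reads or in Ensembl reads was within the spread between rats (two-sided exact permutation, adjusted p of 0.470 to 0.901 over the 3 comparisons). No column repeated another. Of 16 sperm and germ cell mRNAs listed as markers, 0 had a row in the table, and so did 0 of 9 leukocyte and 0 of 6 erythrocyte markers. Of 10 epididymal epithelium markers Lcn5 had a row, and of 8 muscle and stroma markers Col1a1 had one. Through mRNAs the label could not be checked. Among the miRNAs, miR-34b, miR-34c and miR-449, which are abundant in germ cells, held 23.6 to 51.3% of the miRNA table. How far this share is particular to sperm was not tested.

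Mitochondrial fragments made up about as much of the Ensembl table as all its other rows together. The 22 transcripts held 49.8% ± 9.60 of the table in the 7 air libraries (SD), 42.3% ± 10.5 in the 8 at 0.4 ppm and 50.1% ± 14.8 in the 8 at 0.8 ppm. Over the 23 libraries the share ranged from 15.6% in replicate 5 at 0.8 ppm to 65.2% in replicate 4 of air, with a median of 49.6%. It was 38.4% at the lowest and 65.2% at the highest in air, 23.7% and 57.0% at 0.4 ppm, and 15.6% and 64.1% at 0.8 ppm. The 3 groups overlapped, and the 2 lowest shares belonged to the 2 libraries with the fewest miRNA reads. In bulk RNA, fewer cells of a type and less RNA per cell cannot be told apart. The sum over the members is described here with no test.

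**Figure D1:**
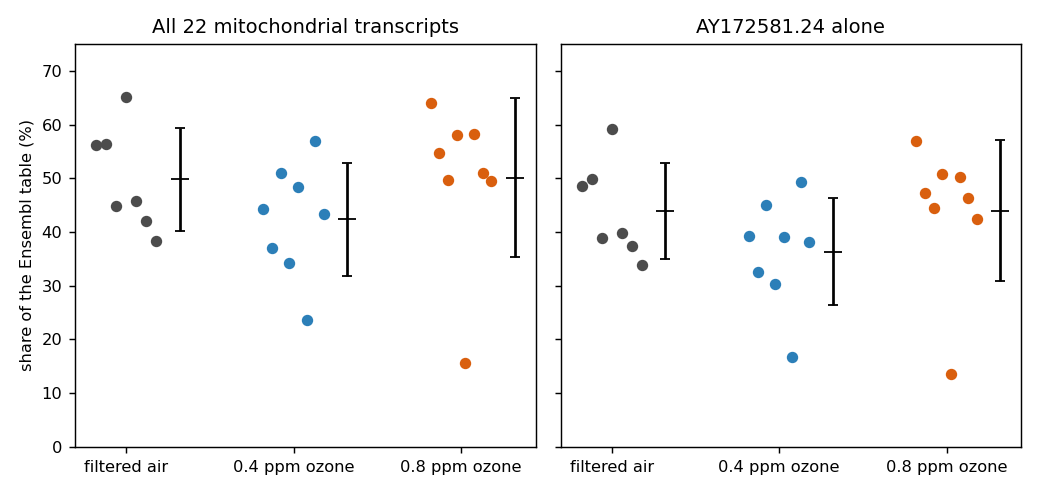
Share of the Ensembl table held by all 22 mitochondrial transcripts (left) and by AY172581.24 alone (right), in percent, for rats exposed to filtered air, 0.4 ppm and 0.8 ppm ozone. Points are single rats, and the bar beside each group is its mean with the SD. The groups overlap, and the lowest points are replicate 5 at 0.8 ppm with 15.6% and replicate 6 at 0.4 ppm with 23.7% for all 22 transcripts.

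That share was almost all noncoding and almost all 1 transcript. The 15 noncoding rows held 1880633 mitochondrial reads over the 23 libraries, while the 7 mRNAs held 1749, which is 0.0929% of the mitochondrial reads. AY172581.24 (ENSRNOT00000069133) made up 83.6% of the mean mitochondrial value, with 70.9 to 90.9% in single libraries. It was the most abundant row of the table in 21 of the 23 libraries and the next one in both others, which were again replicate 6 at 0.4 ppm and replicate 5 at 0.8 ppm. AY172581.9 (ENSRNOT00000040038) followed with 7.02% of the mean mitochondrial value and rank 5 in the table, then AY172581.21 (ENSRNOT00000049396) with 2.98% and rank 13 and AY172581.15 (ENSRNOT00000042644) with 1.30% and rank 17. Below these 4 came a gap. The next, AY172581.3, had a mean normalised value of 85.7, against 1024 for AY172581.15. The lowest noncoding row, AY172581.14, averaged 7.59. Lengths of these transcripts are not given in the sources used here, so the order is one of fragments assigned and not of molecules per length. Neither sequence nor coordinates of the mitochondrial chromosome were used here, and the AY172581 rows are therefore given by the names in the table, with no tRNA or rRNA assigned to them.

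**Figure D2:**
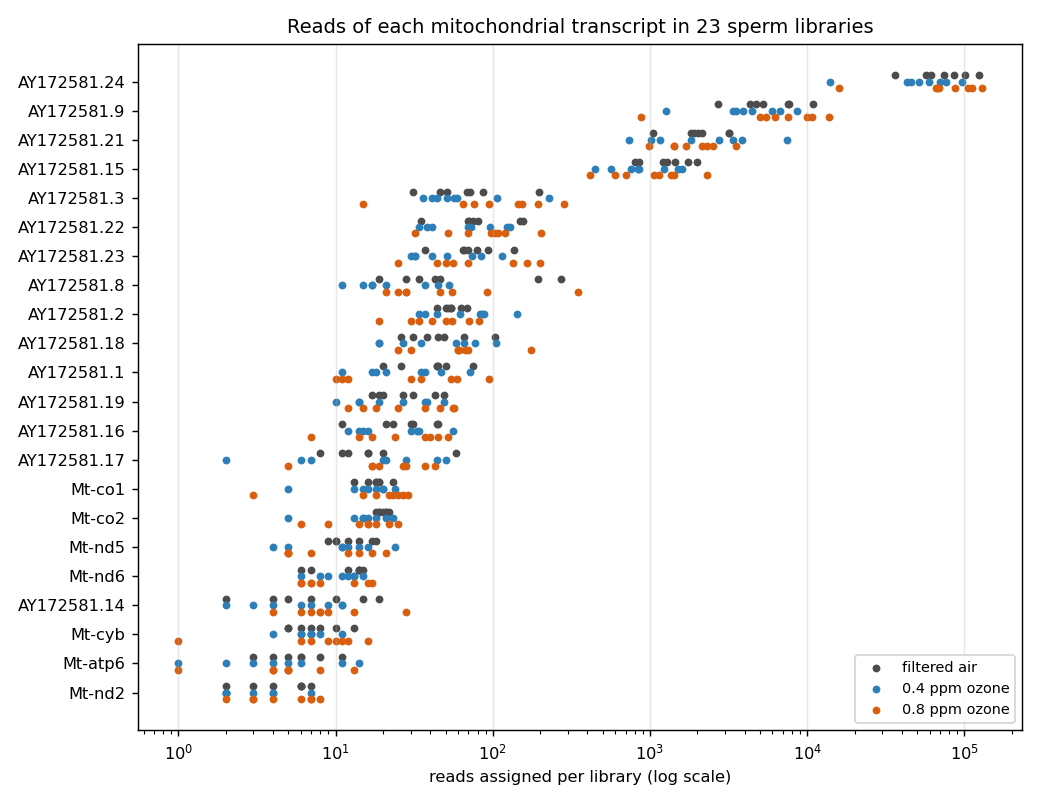
Whole reads assigned to each of the 22 mitochondrial transcripts in each of the 23 libraries, on a log axis, in order of mean normalised value. Each point is 1 rat and colours mark filtered air, 0.4 ppm and 0.8 ppm ozone. AY172581.24 lies between 13982 and 129829 reads, the 7 mRNAs lie between 1 and 29, and the 3 colours overlap in every row.

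AY172581.24 had normalised values of 39936 at the lowest, 56137 at the median and 115110 at the highest in air, of 13878, 55695 and 97568 at 0.4 ppm, and of 18805, 77028 and 112660 at 0.8 ppm. Group means were 65047 ± 24831 in the 7 air libraries (SD), 59236 ± 26187 in the 8 libraries at 0.4 ppm and 73383 ± 27680 in the 8 at 0.8 ppm. The highest library was thus an air library, the lowest an ozone library at 0.4 ppm, and the ranges of the 3 groups covered each other almost entirely. As a share of the table AY172581.24 held 43.9% ± 8.93 in air, 36.3% ± 9.97 at 0.4 ppm and 44.0% ± 13.1 at 0.8 ppm. The share at 0.4 ppm was 7.59 percentage points below that in air (two-sided exact permutation over all relabellings, p = 0.150, adjusted p = 0.325 over 3 comparisons). The difference of 0.8 ppm from air was 0.0614 percentage points (exact permutation, adjusted p = 0.979). At 0.8 ppm it was 7.66 percentage points above that at 0.4 ppm (exact permutation, p = 0.217, adjusted p = 0.325).

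The comparison between the ozone groups turned on 1 library. Without replicate 5 at 0.8 ppm, in which AY172581.24 held 13.5% of the table against 42.5 to 56.9% in the other 7, the share at 0.8 ppm was 12.0 percentage points above that at 0.4 ppm and passed the test (exact permutation, adjusted p = 0.0187). Without this library and replicate 6 at 0.4 ppm, the 2 with the fewest miRNA reads, the difference was 9.23 percentage points (exact permutation, adjusted p = 0.0350). Neither call held with all 23 libraries. The exclusion of both libraries together was added with the values in view.

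The share of 1 row also depends on the other large rows. The 3 most abundant rows that are not mitochondrial, Stat2, Olr1568 and Pcdhga7, together held 19.7% ± 8.88 of the table in the 7 air libraries (SD), 26.5% ± 7.10 in the 8 at 0.4 ppm and 21.3% ± 15.5 in the 8 at 0.8 ppm. They are named for a signal transducer of interferon, an odorant receptor and a protocadherin, and together they reached 57.2% of the table in replicate 5 at 0.8 ppm, where Stat2 had a normalised value of 52779 against a median of 12916 over the 23 libraries. Over the rest of the table, without these 3 rows, AY172581.24 held 54.4% ± 7.34 in air, 49.0% ± 11.1 at 0.4 ppm and 54.5% ± 10.3 at 0.8 ppm. On that base the 2 lowest libraries were still replicate 6 at 0.4 ppm with 24.6% and replicate 5 at 0.8 ppm with 31.5%. The difference of 0.8 ppm from 0.4 ppm was then 5.42 percentage points (exact permutation, adjusted p = 0.523).

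AY172581.9 had normalised values of 2979 at the lowest, 4264 at the median and 7010 at the highest in air, of 1256, 4324 and 8707 at 0.4 ppm, and of 1036, 6846 and 12197 at 0.8 ppm. Its highest 2 values, 12197 and 8707, belonged to ozone libraries of different dose, and its lowest 2 to the libraries that were lowest for AY172581.24. AY172581.21 ran from 1061 through a median of 1634 to 2948 in air, from 420.9 through 2263 to 11162 at 0.4 ppm, and from 1159 through 1696 to 3061 at 0.8 ppm. The highest value, in replicate 5 at 0.4 ppm, lay far above the other 7 of that group, which reached 3892, and the row there held 11.6% of the mitochondrial value. Its share of the mitochondrial value was highest in replicate 6 at 0.4 ppm, with 17.2%, where AY172581.24 was low, against 2.98% of the mean over the 23 libraries. AY172581.15 ran from 707.3 through 1120 to 1411 in air, from 559.8 through 944.1 to 1618 at 0.4 ppm and from 492.1 through 1011 to 1644 at 0.8 ppm. Of the 4 abundant rows it varied least between libraries, by 3.34 times from the lowest to the highest normalised value, against 8.29 times for AY172581.24, 11.8 times for AY172581.9 and 26.5 times for AY172581.21.

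Across all 22 members no difference between exposure groups passed the test. limma on log2(value + 1), fitted to all 617 rows in 1 model of the 3 groups with Benjamini-Hochberg adjustment over all rows, called 0 of 22 members at 0.4 ppm against air, beside 0% of all rows tested. For 0.8 ppm against air, for 0.8 ppm against 0.4 ppm and for a linear trend with ppm, 0 of 22 were called as well, beside 0% of all rows each time. At an unadjusted p under 0.05, 0 members passed at 0.4 ppm against air, where 3.08% of all rows did, and 0 passed at 0.8 ppm against air, where 1.94% did. In the comparison of 0.8 ppm with 0.4 ppm 1 member passed at that level, beside 2.27% of all rows, and for the linear trend 0 passed, beside 1.94%. Exact Wilcoxon tests, run on pairs of groups, also called 0 members, with 0 at an unadjusted p under 0.05.

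**Figure D3:**
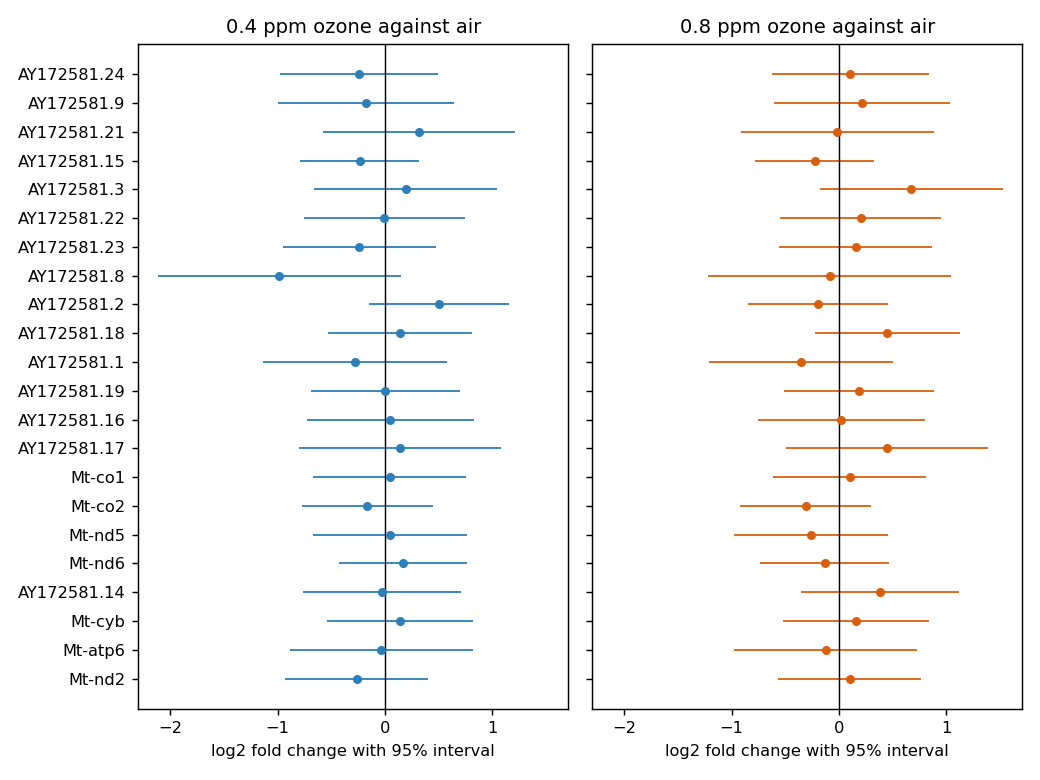
Log2 fold changes of the 22 mitochondrial transcripts with 95% intervals from limma on log2(value + 1), for 0.4 ppm against air (left) and 0.8 ppm against air (right), in order of mean normalised value. Each point is 1 transcript and the vertical line marks no difference. Every interval drawn includes 0, and the point farthest from the line is AY172581.8 with -0.98 at 0.4 ppm.

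The members' fold changes lay on both sides of 0, and whether their split differs from that of the whole table was not tested. At 0.4 ppm against air 11 of 22 log2 fold changes were above 0, beside 48.0% of all rows, with a median of -0.0021 beside -0.013 over all rows. For 0.8 ppm against air 13 of 22 were above 0, beside 47.2%, with a median of 0.10 beside -0.028. Between the ozone groups, 0.8 ppm against 0.4 ppm, 14 of 22 were above 0, beside 47.3%, with a median of 0.12 beside -0.015. For the linear trend 13 of 22 slopes were above 0, beside 46.8% of all rows. These counts moved with the scaling. With each library scaled to 1000000 over the rows that are not mitochondrial, 2, 8 and 17 of 22 were above 0 in the same 3 comparisons, while the median of all rows moved to -0.30, -0.18 and 0.11. Scaled to 1000000 over the whole table, 7, 7 and 11 were above 0 and the median of all rows was at -0.098, -0.21 and -0.12.

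The data left room for moderate differences. The 95% interval of a member's log2 fold change reached 0.726 to either side at the median, at either dose against air. It included a log2 difference of 1 in size for 6 members at 0.4 ppm against air, for 7 at 0.8 ppm against air and for 11 at 0.8 ppm against 0.4 ppm. For AY172581.24 the log2 fold change was -0.24 ± 0.36 at 0.4 ppm against air (SE; 95% interval -0.97 to 0.49) and 0.11 ± 0.36 at 0.8 ppm against air (-0.63 to 0.84). For AY172581.9 it was -0.17 ± 0.40 (-0.99 to 0.65) and 0.21 ± 0.40 (-0.61 to 1.03). For AY172581.21 it was 0.32 ± 0.44 at 0.4 ppm (-0.58 to 1.21) and -0.014 ± 0.44 at 0.8 ppm (-0.91 to 0.88), and the value at 0.4 ppm was -0.018 without replicate 5 of that group. For AY172581.15 it was -0.24 ± 0.27 (-0.79 to 0.32) and -0.23 ± 0.27 (-0.78 to 0.32).

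The smallest p-values among the members came from low noncoding rows. AY172581.8 had normalised values of 15.5 at the lowest, 31.7 at the median and 245.6 at the highest in air, of 9.78, 22.5 and 53.7 at 0.4 ppm, and of 23.1, 34.5 and 300.2 at 0.8 ppm. Replicate 1 at 0.8 ppm, with 300.2, and replicates 2 and 6 of air, with 245.6 and 160.0, were far above the rest, and the means were 71.7 ± 94.7 at 0.8 ppm (SD, n = 8) and 78.7 ± 88.7 in air (SD, n = 7). Its log2 fold change was -0.98 ± 0.55 at 0.4 ppm against air (SE, limma, unadjusted p = 0.0859, adjusted p = 0.971) and 0.90 ± 0.53 at 0.8 ppm against 0.4 ppm (adjusted p = 0.997). AY172581.2 ran from 35.2 through 50.4 to 55.4 in air, from 35.7 through 68.8 to 132.7 at 0.4 ppm and from 16.9 through 41.8 to 78.1 at 0.8 ppm. The 5 highest of its 23 values were 4 libraries at 0.4 ppm and 1 at 0.8 ppm, and the other 4 libraries at 0.4 ppm lay within the range of air. Its log2 fold change was -0.70 ± 0.31 at 0.8 ppm against 0.4 ppm (limma, unadjusted p = 0.0307, adjusted p = 0.997) and 0.51 ± 0.32 at 0.4 ppm against air (adjusted p = 0.971). This is the 1 member that passed at an unadjusted p under 0.05.

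AY172581.3 ran from 33.99 through 56.4 to 109.3 in air, from 43.7 through 57.2 to 229.0 at 0.4 ppm, and from 17.7 through 100.9 to 251.0 at 0.8 ppm. Of the 8 libraries at 0.8 ppm 4 exceeded every air library, and 1 lay below every air library. Its log2 fold change was 0.67 ± 0.42 at 0.8 ppm against air (limma, unadjusted p = 0.118, adjusted p = 0.997) and 0.48 ± 0.40 at 0.8 ppm against 0.4 ppm (adjusted p = 0.997). Leaving out 1 rat at a time moved the value against air between 0.47 and 1.004. AY172581.18 averaged 41.1 ± 11.7 in air, 49.5 ± 27.9 at 0.4 ppm and 60.2 ± 29.8 at 0.8 ppm (SD), with a log2 fold change of 0.45 ± 0.33 at 0.8 ppm against air (limma, adjusted p = 0.997). AY172581.14 averaged 7.08 ± 4.204, 6.52 ± 3.00 and 9.10 ± 4.91 in the same order, with 0.38 ± 0.36 at 0.8 ppm against air (limma, adjusted p = 0.997). The 6 noncoding rows not named singly with group values, AY172581.1, AY172581.16, AY172581.17, AY172581.19, AY172581.22 and AY172581.23, had means of 19.9 to 81.7 over the 23 libraries.

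Of the 13 mitochondrial mRNAs 7 had a row. For complex I, which takes electrons from NADH, 3 of 7 subunit mRNAs were present, Mt-nd2, Mt-nd5 and Mt-nd6. Cytochrome b of complex III was present as Mt-cyb. For complex IV, which passes electrons to oxygen, 2 of 3 were present, Mt-co1 and Mt-co2, and for ATP synthase 1 of 2, Mt-atp6. Each row was above 0 in all 23 libraries, at median counts of 4 to 18 reads per library. Together they held 0.0495% ± 0.0111 of the table in the 7 air libraries (SD), 0.0471% ± 0.00581 in the 8 at 0.4 ppm and 0.0427% ± 0.0117 in the 8 at 0.8 ppm.

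Mt-co1, the catalytic core of complex IV, had normalised values of 10.6 at the lowest, 14.9 at the median and 21.5 at the highest in air, of 4.96, 19.9 and 23.4 at 0.4 ppm and of 3.55, 18.7 and 25.8 at 0.8 ppm. Its lowest 2 values were in the 2 libraries that were lowest for AY172581.24, with 3 reads in replicate 5 at 0.8 ppm and 5 reads in replicate 6 at 0.4 ppm. Mt-co2, the subunit that accepts electrons from cytochrome c, ran from 11.7 through 17.7 to 23.0 in air, from 4.96 through 16.1 to 23.4 at 0.4 ppm and from 7.10 through 13.6 to 23.7 at 0.8 ppm. Mt-cyb averaged 6.48 ± 1.89, 7.20 ± 1.89 and 8.23 ± 4.22 from air to 0.8 ppm, and Mt-atp6, the proton channel subunit of ATP synthase, 5.53 ± 2.90, 6.06 ± 4.21 and 5.19 ± 3.39. The complex I mRNAs averaged 11.1 ± 3.60, 12.7 ± 7.21 and 9.72 ± 5.03 for Mt-nd5, 10.00 ± 3.30, 11.4 ± 3.92 and 9.19 ± 3.82 for Mt-nd6, and 4.31 ± 2.03, 3.503 ± 2.12 and 4.63 ± 2.10 for Mt-nd2. In each mRNA the ranges of the 3 groups overlapped. Of the 7, 4 had a log2 fold change above 0 at 0.4 ppm against air, between -0.26 and 0.17, and 3 at 0.8 ppm against air, between -0.31 and 0.16.

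Counting error set much of the spread of these mRNAs. Mt-cyb and Mt-atp6 had 1 read at their lowest, a count whose exact Poisson 95% interval runs from 0.0253 to 5.57. The variance expected from counting alone was 94.5% of the variance between rats of the same group for Mt-nd2, 84.0% for Mt-cyb, 73.4% for Mt-nd6 and 59.4% for Mt-co2. For Mt-co1 the figure was 45.7%, for Mt-atp6 43.4% and for Mt-nd5 35.6%. For AY172581.24 it was 0.00915%, and the SD between rats there was 104.5 times the SD from counting alone. The 4 abundant noncoding rows thus varied between rats by 11.1 to 104.5 times their counting error, and the spread between rats, not counting, made up nearly all of their error. The intervals cover counting error only, since amplified reads are not independent molecules.

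**Figure D4:**
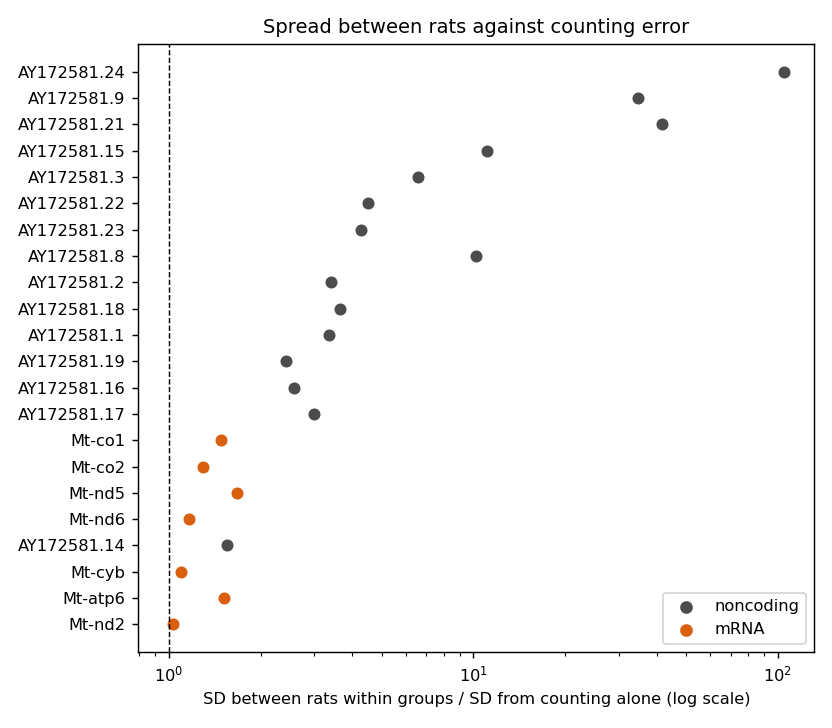
Ratio of the SD between rats of the same group to the SD expected from counting reads alone, on a log axis, for the 22 transcripts in order of mean normalised value. The dashed line marks a spread equal to counting error. The mRNAs lie between 1.03 and 1.68 and AY172581.24 lies at 104.5.

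On the log2 scale the residual SD within groups had a median of 0.681 over the 22 members and of 0.677 over the other 595 rows, and 11 members were above the median of the other rows. It ran from 0.512 to 1.17 among the noncoding members and from 0.482 to 0.837 among the mRNAs.

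Part of the mitochondrial set varied together from rat to rat. Over the 23 libraries, with log2(value + 1), AY172581.9 tracked AY172581.24 with Pearson r = 0.934 and Spearman rho = 0.886 (permutation with 100000 orders, adjusted p = 0.00021 for both over 21 relations, from the smallest p these orders can give, 1e-05). The coefficient was 0.819 within air, 0.987 within 0.4 ppm and 0.948 within 0.8 ppm, and 0.837 over all rats without the 2 libraries farthest from the median of AY172581.24, replicate 6 at 0.4 ppm and replicate 5 at 0.8 ppm. Of the 21 other members 7 passed by Pearson's r, 4 of 14 noncoding and 3 of 7 mRNAs, and 6 of these passed by rho as well. AY172581.23 had r = 0.708 (0.668 without the 2 libraries), AY172581.3 r = 0.628 (0.60) and AY172581.22 r = 0.566 (0.727). Mt-co1 had r = 0.824, with 0.475 without the 2 libraries, and Mt-cyb r = 0.715, with 0.486. For Mt-co2 r = 0.648 rested on those libraries, being 0.0722 without them, and rho was 0.248. The other 14 members did not pass by Pearson's r, with r between -0.173 for AY172581.17 and 0.474 for AY172581.15. All these values share the library and its scaling factor, and scaled to 1000000 over the rows that are not mitochondrial 9 of 21 relations passed. Relations of AY172581.24 to the other 595 rows were not run, so whether they pass as often is not known.

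The share of AY172581.24 also moved with the makeup of the miRNA table of the same library. The miR-200 family holds miRNAs typical of epithelium such as the lining of the epididymal duct. Among 6 library measures, its summed share had the strongest relation over all libraries. Pearson r was -0.851 and Spearman rho -0.688 (permutation with 100000 orders, adjusted p = 6e-05 and 0.00252 over the 6). The family held 1.14% ± 0.325 of the miRNA table in the 7 air libraries (SD), 1.78% ± 0.716 in the 8 at 0.4 ppm and 1.28% ± 0.719 in the 8 at 0.8 ppm. The 2 highest libraries, replicate 6 at 0.4 ppm with 3.23% and replicate 5 at 0.8 ppm with 2.95%, were the 2 lowest in AY172581.24, and r was -0.646 without them. Within groups r was -0.656 in air, -0.784 at 0.4 ppm with replicate 6 kept, and -0.960 at 0.8 ppm with replicate 5 kept. With AY172581.24 taken over the table without Stat2, Olr1568 and Pcdhga7, r was -0.824 and rho -0.610, with r = -0.506 without the same 2 libraries. The summed share of those 3 rows itself had r = 0.707 and rho = 0.528 with the miR-200 share. The part that epithelial cells play in the mitochondrial share was not tested.

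**Figure D5:**
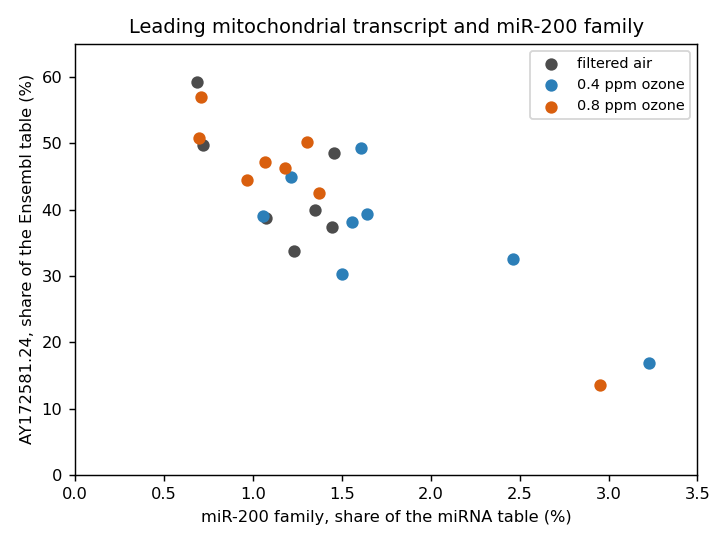
Share of AY172581.24 in the Ensembl table (vertical axis, percent) against the share of the miR-200 family in the miRNA table (horizontal axis, percent), 1 point per rat, coloured by exposure group. Pearson r over the 23 libraries is -0.851, and -0.646 without the 2 points at the lower right, replicate 6 at 0.4 ppm and replicate 5 at 0.8 ppm.

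Over all libraries the relation ran through most single members of the family. Of 8 miR-200 family rows, taken 1 by 1 after the family result was known, 8 had a negative r with the share of AY172581.24 and 7 passed (permutation with 100000 orders, adjusted over the 8). These rows are the parts of the summed share, so they are no separate support for its relation. Within air r ran from -0.814 for miR-200a-3p to 0.318 for miR-141-5p, with -0.332 for miR-141-3p and -0.246 for miR-200c-3p. Single miRNAs outside the family were not run in this way, so whether they pass as often is not known. miR-200a-3p, with 0.544% ± 0.311 of the miRNA table (SD, n = 23), had r = -0.874 (adjusted p = 4e-05) and rho = -0.869, and r = -0.860 without the 2 libraries farthest from its median. miR-141-3p, the most abundant with 0.650% ± 0.337, had r = -0.672 (adjusted p = 0.00208), and -0.402 without 2 libraries. miR-200c-3p had 0.0861% ± 0.0328 and r = -0.702 (adjusted p = 0.00208). miR-141-5p, with 0.000218% of the table on average, had r = -0.288 and did not pass. The mature strands of miR-141-3p and miR-200c-3p, neighbours on chromosome 4, are shown because they carry the different seeds of the family, in capitals at bases 2 to 8, with sequences from RefSeq on build GRCr8. Their places are chr4:159209540-159209561 and chr4:159209969-159209989, both on the minus strand.
rno-miR-141-3p: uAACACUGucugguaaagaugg
rno-miR-200c-3p: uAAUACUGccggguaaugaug

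Over all libraries, other measures had weaker relations to the share of AY172581.24. miRNA reads had r = 0.576 and rho = 0.595 (permutation, adjusted p = 0.0117 for r), with r = 0.368 within air, 0.381 at 0.4 ppm and 0.756 at 0.8 ppm. The germ cell measure, the share of miR-34b, miR-34c and miR-449, had r = 0.483 (permutation, adjusted p = 0.0297). Its r was 0.282, 0.315 and 0.490 within the groups in the same order. The erythroid miRNA share had r = -0.537 (permutation, adjusted p = 0.0210), at 0.0107 to 0.206% of the miRNA table. Each measure was also taken without the 2 libraries farthest from its own median. Then r was 0.663 for miRNA reads, 0.677 for the germ cell measure and -0.432 for the erythroid share. For the miR-200 family it was -0.646, which was then no longer the strongest relation. Leukocyte miRNAs, with 1.75 to 6.43% of the table, had r = -0.0115, and muscle and stroma miRNAs, with 1.54 to 11.3%, r = 0.00621, and neither passed. Reads of the Ensembl table, a measure added after the values were seen, had r = 0.749 and rho = 0.691 (permutation p = 7e-05 and 0.00043, unadjusted). Against the epithelial share, miRNA reads had r = -0.445 and rho = -0.322 (permutation p = 0.0321 and 0.135, unadjusted), and Ensembl reads r = -0.522 and rho = -0.377 (permutation p = 0.00938 and 0.0774, unadjusted). The Ensembl total includes the reads of AY172581.24 itself, 13.5 to 59.2% of it, so it does not measure depth apart from that row. The part of depth in the mitochondrial share was not tested. Numbers at the end of the library names run from 1 to 12, and the labels do not say which libraries were sequenced together, so no value within a run was available.

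A list of nuclear genes for mitochondrial proteins, of the respiratory chain, import, translation and maintenance, takes in 316 protein-coding symbols of the RefSeq annotation on GRCr8. Of these 1 had a row in the table, Mfn2, which fuses outer mitochondrial membranes. The table has 617 rows in all, and the share of all annotated genes with a row was not computed. Mfn2 averaged 3.31 ± 0.601 in the 7 air libraries (SD), 3.63 ± 1.95 in the 8 at 0.4 ppm and 5.09 ± 2.64 in the 8 at 0.8 ppm, with overlapping ranges. Its log2 fold change was -0.043 ± 0.33 at 0.4 ppm against air and 0.39 ± 0.33 at 0.8 ppm against air (SE, limma, adjusted p = 0.989 and 0.997).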

How the data were processed

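Per the labels' protocols, the mirVana and CleanTag kits were used for extraction and libraries, followed by NextSeq sequencing of 1 end with 75 cycles. Tools and builds in the submitters' processing notes are Bowtie 1.0.0, Partek and rn6; the assignment of reads to rows is not stated there. The values deposited by the authors are a scaled read signal, not raw counts. The median ratio of each library to the geometric mean was equal in the 23 libraries. Since the other rows of the Ensembl table held fractional reads, no count test was run. The miRNA table, in whole reads, served for depth and marker shares, and the tRNA and piRNA tables were not used.

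All 617 rows were above 0 in at least 8 libraries and were tested with limma 3.58.1 (R 4.3.3) on log2(value + 1), moderated robustly around a mean-variance trend, all 3 groups in 1 model, Benjamini-Hochberg over all rows, two-sided at 0.05. Fold changes on this scale understate low rows. Permutations used scipy 1.17.1. Each library is 1 rat, so p-values measure the spread between animals.

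Values by group are given for the 5 most abundant members, every mitochondrial mRNA and the 3 smallest p-values of each pair of groups. Members and lists were chosen with earlier results of these data known. Alternatives changed the pseudocount, the filter, the scaling (quantiles included), library weights and depth covariates, or used the compared groups alone, exact Wilcoxon tests or fewer rats. The Ensembl depth covariate, the exclusion of the 2 libraries with the fewest miRNA reads, the base without Stat2, Olr1568 and Pcdhga7, and the single miR-200 rows were added after seeing the data.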

Additional observations from a re-analysis of the deposited data

Results flagged for a closer look

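In 72 groups of 7 or 8 rats, the highest or lowest rat stood apart from the rest of its group in 7, by a gap test. For normally distributed values chance passes it in about 1 of 20 groups, and whether these values are so distributed was not tested. Replicate 5 at 0.8 ppm was low in the share of AY172581.24, with 13.48% of the Ensembl table against 42.5 to 56.9% in the other 7, and in the share of all 22 transcripts, with 15.62% against 49.6 to 64.1%. This library also had the fewest miRNA reads, 213840, and the highest Stat2 value, 52779. Replicate 5 at 0.4 ppm was high in AY172581.21, with a normalised value of 11162 (7404 reads) against 420.9 to 3892. Replicate 7 at 0.4 ppm was high in AY172581.3, with 229 (226 reads) against 43.7 to 66.3. Replicate 1 at 0.8 ppm was high in AY172581.22, with 175.3 (202 reads) against 37.9 to 97.7, and in AY172581.8, with 300.2 (346 reads) against 23.1 to 87.3. Replicate 4 at 0.8 ppm was high in AY172581.18, with 124.8 (174 reads) against 23.7 to 66.0. No air library stood apart by this test. It takes only the gap next to the end value, so 2 high values together can escape it. AY172581.8 had such values in air, 245.6 in replicate 2 and 160.0 in replicate 6.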

How the results depend on the processing

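The count of mitochondrial transcripts past the threshold was 0 in all 4 comparisons under every alternative run. Of the 298 values from alternatives other than leaving out 1 rat, 18 turned direction or came to 0, all of them values that had not passed. For the share of AY172581.24 at 0.8 ppm against air these were -0.324 percentage points as a share of the mitochondrial rows and -0.0452 as a log2 ratio to the rows that are not mitochondrial, and leaving out 1 rat gave -1.79 to 4.42. Between 0.8 ppm and 0.4 ppm the share difference became 9.23 without the 2 libraries with the fewest miRNA reads, and leaving out 1 rat gave 4.87 to 12.0. For log2 fold changes at 0.4 ppm against air, AY172581.24 was 0.059 with Ensembl depth as covariate and 0.033 without those 2 libraries, AY172581.9 was 0.16 with either depth covariate (0.161 and 0.157) and 0.080 without those 2 libraries, and AY172581.3 was -0.079 on the scaling over rows that are not mitochondrial. At 0.8 ppm against air, AY172581.24 was -0.073 scaled to 1000000 over the table, -0.045 scaled over the rows that are not mitochondrial and -0.26 with quantile normalization, AY172581.9 was -0.10 with quantile normalization, and AY172581.21 was 0.035 with quantile normalization, 0.14 with library weights, 0.070 without those 2 libraries and 0.033 by Wilcoxon. For 0.8 ppm against 0.4 ppm, AY172581.24 was 0 with quantile normalization and -0.033 with Ensembl depth as covariate. The Ensembl depth covariate includes the reads of AY172581.24 itself. Quantile normalization sets a value from its rank alone. AY172581.24 ranked first in all libraries but replicate 6 at 0.4 ppm and replicate 5 at 0.8 ppm, where it ranked next. Its 0 and its -0.26 against air under quantile normalization follow from these ranks. Leaving out 1 rat gave, at 0.4 ppm against air, -0.37 to 0.033 for AY172581.24, -0.32 to 0.080 for AY172581.9, -0.018 to 0.66 for AY172581.21 and -0.062 to 0.35 for AY172581.3. For 0.8 ppm against air it gave -0.0021 to 0.37 for AY172581.24 and -0.14 to 0.11 for AY172581.21. The cause of the turns other than those of AY172581.24 under quantile normalization was not tested.

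The count of 7 relations with AY172581.24 became 8 on deviations from group means and 6 without the 2 farthest libraries. These 6 need not be among the 7. Without the 2 libraries r was 0.621 for AY172581.19 and 0.595 for AY172581.21, which were not among the 7. It was lower for the mRNAs among the 7, with 0.486 for Mt-cyb, 0.475 for Mt-co1 and 0.0722 for Mt-co2. A mean of at least 10 left 18 members to test. No paired analysis was possible because the labels give no replicate numbers that tie rats across groups. Depth limits the 7 mRNAs and AY172581.14, at median counts of 4 to 18 reads.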
